A study of Mus musculus with 12 samples.

Results

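Ly6C+ monocytes of bone marrow (BM 1, BM 2 and BM 3) were set against Ly6C+ monocytes of wild-type fetal liver (WT 1, WT 2 and WT 3), which make up 6 of the 12 libraries of a mouse bulk RNA-seq series. The libraries were chosen by their tissue and genotype labels and not by a measured value. The comparison ran across all genes off chromosomes X and Y, 14152 of the 14618 genes that passed the filter on low counts, and it is described by functional class. Genes on X and Y were left out because Y-linked transcripts were absent from the bone marrow libraries and present in the WT libraries, so that these chromosomes went with tissue.

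The bone marrow libraries carry the genotype label WT and no age. WT 1 came from fetal liver at E13.5 (embryonic day), WT 2 and WT 3 at E15.5, all of genotype WT, and no allele, transgene or treatment is named for either group. The other 6 libraries, fetal liver KO and fetal liver Mixed, entered the fit for its estimate of the spread. They also took part in the scaling and in the count filter. With them 14152 genes off X and Y were tested, and 13309 in a fit of bone marrow and WT alone. Average levels used to choose genes are over all 12 libraries. The labels name Ly6C as the marker of the cells, and do not say which further surface markers were used, whether embryos or mice were pooled, or whether replicate libraries stand for different animals. The p-values therefore measure the spread between these libraries, which may be technical. Tissue, age and the presence of Y-linked RNA cannot be told apart in this design, and in bulk RNA fewer cells of a type and less RNA per cell cannot be told apart either.

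Monocytes are circulating phagocytes that enter tissues, present antigen and become macrophages. Classical monocytes carry Ly6C at high level and mature in the adult from progenitors of the bone marrow, whereas in the embryo the liver is the main site of blood formation and releases monocytes that seed many tissues with macrophages. Blood cells of the fetus use a gene program of their own, in which LIN28 proteins block the maturation of let-7 microRNAs, and the program recedes as blood formation moves to the marrow.

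Depth was alike in both groups. Total counts ran from 18208886 to 21911278 in bone marrow and from 17384911 to 21703987 in WT, and 19649 to 21046 genes had a count in each WT library against 24422, 20077 and 19896 in BM 1, BM 2 and BM 3. Mitochondrial transcripts made up 0.976 to 1.03% of counts in bone marrow and 2.02 to 2.23% in WT. Log levels correlated at 0.985 to 0.9879 between bone marrow libraries, at 0.9842 to 0.9881 between WT libraries and at 0.9111 to 0.9167 between the groups, across genes, which are not independent replicates. Levels below are counts per 1000000 on scaled library sizes (CPM), and a gene is called higher or lower where edgeR's quasi-likelihood test gave a Benjamini-Hochberg adjusted p under 0.05 over all genes tested.

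Bone marrow and fetal liver monocytes differed at most genes. Of 14152 genes 9055 were called (64%), 4570 higher in bone marrow (32.3%) and 4485 lower (31.7%). At 2-fold or more 1799 were higher (12.7%) and 1695 lower (12%), at 4-fold or more 655 and 672, and at 16-fold or more 134 and 216. In 9645 genes (68.2%) the 3 bone marrow libraries did not overlap with the 3 WT libraries. The median log2 fold change over all genes tested was 0.01, with quartiles of -0.56 and 0.56. Against these shares the classes below are to be read: a class in which about 32.3% of members were higher and 31.7% lower is like the genes at large.

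**Figure D1:**
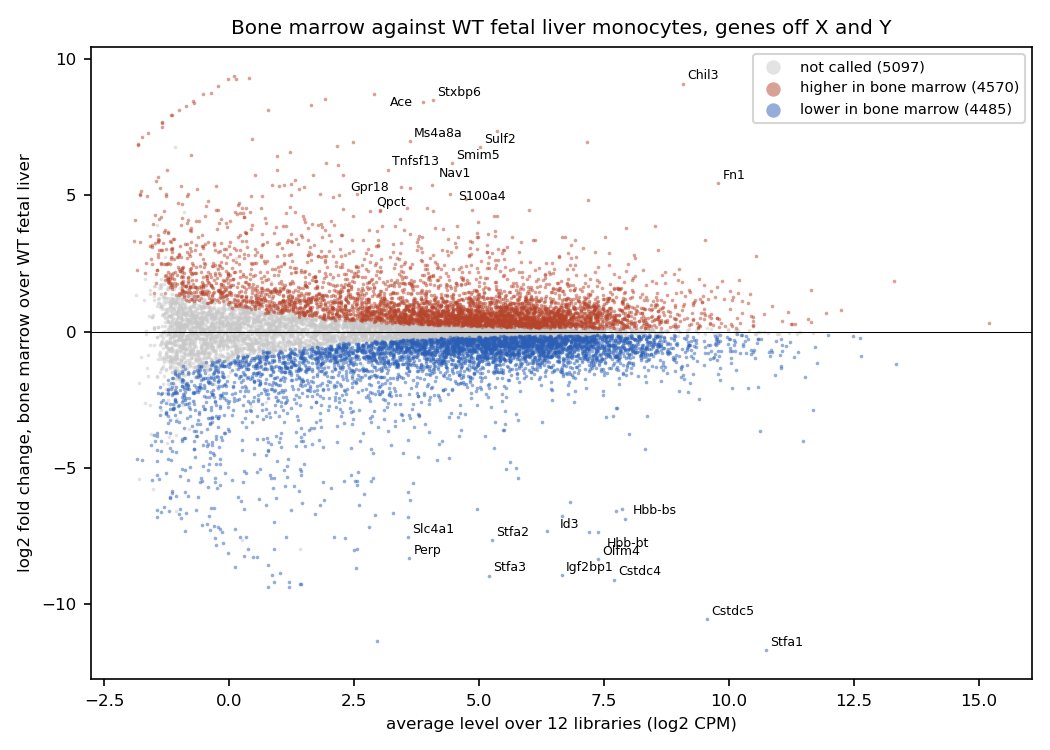
Log2 fold change of bone marrow over WT fetal liver (y axis) against the average level over the 12 libraries in log2 CPM (x axis), 1 point per gene off X and Y, red for the 4570 genes higher in bone marrow, blue for the 4485 lower and grey for the rest. The 24 labelled genes are those with the largest rises and falls among genes averaging 3 log2 CPM or more, from Chil3 at the top to Stfa1 at the bottom.

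The 12 largest rises in bone marrow ran from 33.5-fold to 552-fold, and among them were Chil3, Stxbp6, Ace and Fn1. Chil3, which encodes a chitinase-like protein of myeloid cells, was at 2177, 2147 and 2140.3 CPM in bone marrow and at 2.18, 2.5 and 6.86 CPM in WT. The bone marrow libraries lay within a narrow band, and the highest WT library was WT 3. The difference was 552-fold (log2 9.11, SE 0.4, adjusted p = 5.92e-08 by edgeR's quasi-likelihood test), and without WT 3 it was log2 9.83. Fn1, which encodes the matrix protein fibronectin, was at 3109, 3297 and 3457 CPM in bone marrow and at 60.6, 72.2 and 91.3 CPM in WT (log2 5.46, SE 0.142, adjusted p = 3.35e-11). Ace, the angiotensin-converting enzyme and a marker of non-classical monocytes, was at 50.2, 58.8 and 66.8 CPM against 0.167, 0.134 and 0.188 CPM (log2 8.44, SE 0.216, adjusted p = 2.26e-18), so that WT held 10 counts of it in all. Of the same order was Stxbp6, which encodes a syntaxin-binding protein of vesicle fusion, at 66.9 ± 5.48 CPM (SD, n = 3) against 0.177 ± 0.0421 CPM. The others among the 12 largest rises were Ms4a8a (127-fold), the heparan sulfatase gene Sulf2 (110.2-fold), Smim5 (73.4-fold), the APRIL cytokine gene Tnfsf13 (61.8-fold), Nav1 (41.5-fold), the lipid receptor gene Gpr18 (40-fold), Qpct, which encodes the enzyme that forms pyroglutamate at the ends of proteins (39.1-fold), and the calcium-binding protein gene S100a4 (33.5-fold).

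The 12 largest falls in bone marrow ran from 117-fold to 3338-fold and included 5 stefin genes, Igf2bp1, Id3 and 2 beta globin genes. Stfa1, a stefin A gene for a cytosolic inhibitor of cysteine proteases, was at 1577, 1373 and 1796 CPM in WT and at 0.385, 0.513 and 0.496 CPM in bone marrow. That is 3338-fold lower in bone marrow (log2 -11.70, SE 0.158, adjusted p = 8.95e-18), the largest fall among genes averaging 3 log2 CPM or more. In TPM (transcripts per 1000000, a level corrected for gene length) Stfa1 was the 13th most abundant gene of WT off X, Y and the mitochondrial genome, at a mean of 4206 TPM, against 1.37 TPM in bone marrow. The neighbouring stefin genes on chromosome 16 fell too: Cstdc4 (113 to 186 CPM in WT, 0.149 to 0.33 in bone marrow), Cstdc5 (254 to 484 and 0 to 0.55), and Stfa3 (35.3 to 56.9 and 0.0466 to 0.165). Stfa2, at 7.14, 7.91 and 18.8 CPM in WT, had 3 counts in bone marrow, in BM 2 and BM 3, a ratio of 228 (95% interval 77.8 to 1109, counting error only). Its average of 5.262 log2 CPM over all libraries was raised by fetal liver KO, at a mean of 138.5 CPM. The other low levels in bone marrow rest on few counts as well: the log2 change of Cstdc5 went from -10.57 to -12.09 without BM 1 and to -9.97 without BM 2, and that of Stfa3 from -8.96 to -9.69 without BM 1. These genes are near-identical copies, so the division of reads among them is uncertain. Stefin A genes are also known from neutrophils. Of 11 neutrophil markers, given below, 6 were lower in bone marrow and 2 higher.

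Olfm4, which encodes a neutrophil granule glycoprotein, was at 143, 164 and 249.6 CPM in WT and at 0.769, 0.885 and 0.0496 CPM in bone marrow (log2 -8.34, SE 0.517, adjusted p = 7.42e-07). Perp, a p53 target gene of cell junctions, had 3 counts in bone marrow, all in BM 3, and was at 16.8, 14.8 and 22.3 CPM in WT, a ratio of 358 (95% interval 122 to 1739). Id3 encodes an inhibitor that binds E proteins and keeps them from DNA. It was at 194, 182 and 174 CPM in WT and at 0.605, 1.17 and 1.54 CPM in bone marrow, without overlap and 163-fold lower in bone marrow (log2 -7.35, SE 0.12, adjusted p = 1.45e-21). The remaining genes of the 12 largest falls were Igf2bp1, Slc4a1 and the beta globin genes Hbb-bt and Hbb-bs, described with their classes.

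**Figure D2:**
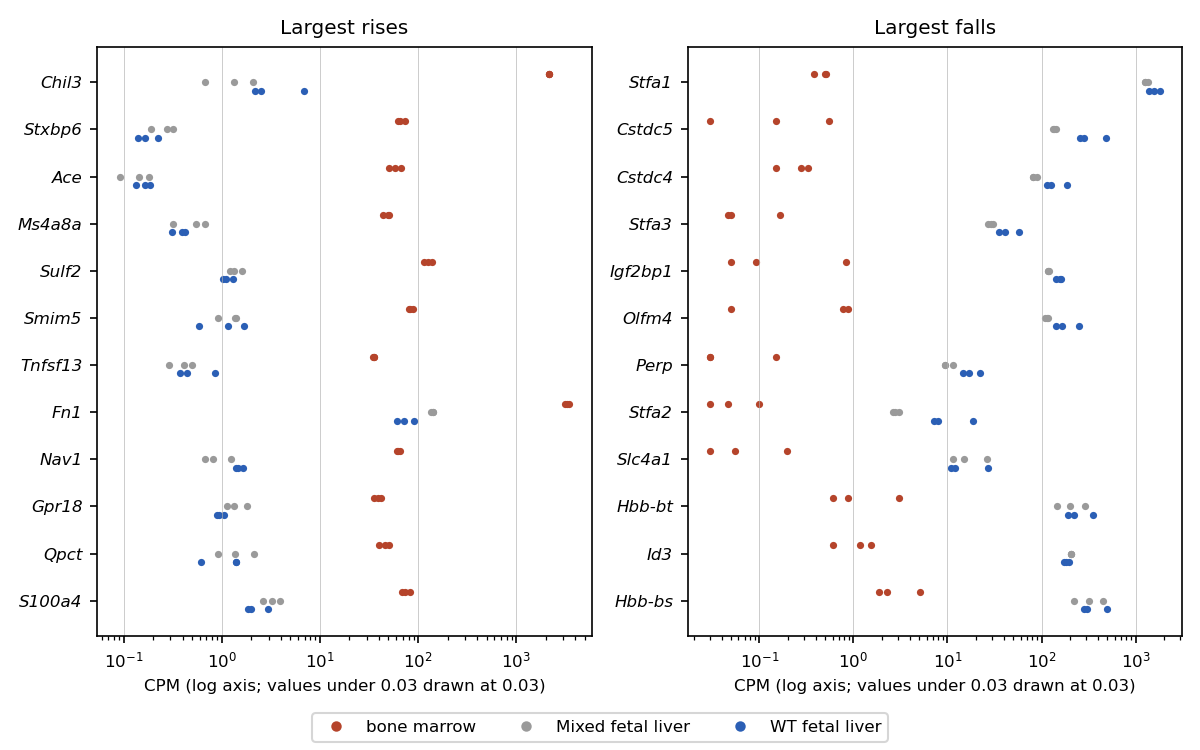
Level in CPM (log axis) of the 12 genes with the largest rises (left) and the 12 with the largest falls (right) in each library, bone marrow in red, WT fetal liver in blue and Mixed fetal liver in grey, with values under 0.03 drawn at 0.03. The bone marrow points of Chil3 lie close together between 2140.3 and 2177 CPM, while those of Stfa1, at 0.385 to 0.513 CPM, lie over 3 orders of magnitude below the WT points at 1373 to 1796 CPM.

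Fetal program genes were lower in bone marrow throughout, several of them close to 0. All 9 tested members of the list of fetal RNA-binding and associated genes were lower in bone marrow (31.7% of all genes were), with a median log2 fold change of -5.56 against 0.01 over all genes. The other 3 members of the 12, Trim71, Sox17 and Plagl1, were below the count filter. Igf2bp1, Igf2bp2 and Igf2bp3 encode proteins that bind and stabilize messenger RNAs. Igf2bp1 was at 159, 142 and 156 CPM in WT and at 0.824, 0.0932 and 0.0496 CPM in bone marrow (log2 -8.95, SE 0.236, adjusted p = 7.28e-13). BM 1 held most of the bone marrow counts, and without it the log2 change was -10.93. Igf2bp3 was at 169, 154 and 159.8 CPM in WT and at 2.53, 1.68 and 2.08 CPM in bone marrow, 77.4-fold lower (log2 -6.27, SE 0.095, adjusted p = 4.83e-22). Igf2bp2 was 47.2-fold lower in bone marrow. Lin28b and Lin28a, whose products block the processing of let-7 precursors, were at 19.9 ± 1.39 and 17.5 ± 3.26 CPM in WT and at 0.29 ± 0.418 and 1.37 ± 0.571 CPM in bone marrow. The Lin28b value also rests on BM 1, with a log2 change of -6.18 over all libraries, -8.53 without BM 1 and -5.58 without BM 2. The chromatin architecture genes Hmga2 (7.48, 8.4 and 6.76 CPM in WT, 0.055, 0.186 and 0.149 CPM in bone marrow, 54.2-fold lower) and Hmga1 (839.7, 872 and 929 CPM in WT, 148, 166 and 163 CPM in bone marrow, 5.53-fold lower) differed in level and in size of change. Plag1, a zinc finger gene of fetal growth, was 5.74-fold lower. The least change was in Arid3a, an activator of fetal B cell genes, at 133 ± 4.79 CPM in WT and 34.1 ± 3 CPM in bone marrow (3.89-fold lower).

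Several of these messages are known let-7 targets, so the letters of the sites are shown beside their values. The mature let-7 microRNAs share a seed, bases 2 to 8, given here in capitals from RefSeq on GRCm38.p6, and differ in the bases after it.
mmu-let-7a-5p: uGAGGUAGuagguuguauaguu
mmu-let-7b-5p: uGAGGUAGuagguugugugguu
mmu-let-7g-5p: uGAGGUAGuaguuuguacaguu
The full match to that seed followed by an A reads CTACCTCA in the message. In GENCODE annotation of GRCm38, 7 of the 9 fetal list genes held it in their longest annotated 3′ UTR (77.8%), against 410 of 11401 tested genes with a 3′ UTR (3.6%). The matches are in capitals with 9 bases on either side, 5′ to 3′ on the strand of the gene.
Lin28b, chr10:45381013-45381038, minus strand: gcgggaagtCTACCTCAtgcaagcac
Hmga2, chr10:120364215-120364240, minus strand: attcaatttCTACCTCAgcatcagtt
Igf2bp1, chr11:95961769-95961794, minus strand: cgaagtaaaCTACCTCAaggtgtgaa
Igf2bp2, chr16:22059464-22059489, minus strand: aaataaaagCTACCTCAggtgttttt
Igf2bp3, chr6:49086778-49086803, minus strand: tttactcaaCTACCTCAggtattcag
Arid3a, chr10:79953901-79953926, plus strand: agtttctttCTACCTCAggtcttttg
Igf2bp1 held 3 such matches and Lin28a 2, while Hmga1 and Plag1 held none. The list has long 3′ UTRs, with a median of 2775 bases against 1137 over all tested genes. Over all tested genes the match did not go with a fall in bone marrow: of the 410 genes that hold it 35.1% were higher and 33.7% lower, with a median log2 fold change of 0.00, and of the 10991 without it 34.9% were higher and 33.9% lower. Mature let-7 was not measured in these libraries. Of 4 tested host genes that contain let-7 hairpins on the same strand, Mir99ahg, the host of Mirlet7c-1, was higher in bone marrow (2.28 ± 0.787 against 0.573 ± 0.379 CPM, log2 1.96, adjusted p = 0.00104, and log2 2.63 without WT 2), Wdr82, the host of Mirlet7g, was lower (log2 -0.32, adjusted p = 0.0114), and the hosts of Mirlet7d with Mirlet7f-1 and Mirlet7a-1 and of Mirlet7e were not called. This search was chosen after the values of the list were seen.

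Most imprinted growth genes were at low level in WT and at or near 0 in bone marrow. Of 10 tested members 8 were lower and 1 higher, with a median log2 fold change of -3.89, or -2.42 with the 3 genes absent from bone marrow set at the bound that a floor of 3 counts per library gives. Those 3 genes could not come out higher, since only fetal liver libraries carried them past the count filter. Without BM 1 the median was -6.85, and 6 were lower without BM 2. In the fit of the 6 libraries alone 7 members were tested, 5 of them lower and 1 higher, with a median of -2.43. Grb10, which encodes an adaptor that restrains insulin signalling, was at 4.69, 6.17 and 11.2 CPM in WT and had counts only in BM 2 among bone marrow libraries (0.0932 CPM), a ratio of 223 (95% interval 61.5 to 1850.0). Peg3, a zinc finger gene of the paternal allele, had no count in bone marrow and was at 0.669 to 1.17 CPM in WT, at least 6.04-fold lower. The higher member was Gnas, which encodes the stimulatory G protein subunit (84.5 ± 3.15 against 59.1 ± 0.916 CPM, 1.43-fold), and Impact was not called (24.3 and 23.8 CPM, adjusted p = 0.807).

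Transcription factors of the monocyte line split into those that rose and those that fell, with a few of the best known called in neither direction. Of 33 myeloid factors 18 were higher and 8 lower in bone marrow, with a median log2 fold change of 0.40. Zeb2, a zinc-finger repressor named in the title of the series, was at 311, 319.7 and 338 CPM in bone marrow and at 141, 143 and 165 CPM in WT. The groups did not overlap, and bone marrow was 2.16-fold higher (log2 1.11, SE 0.0685, adjusted p = 4.68e-12). An antisense gene overlaps Zeb2 (chromosome 2, 44983632 to 45117395, minus strand), and these libraries carry no strand, so part of its counts is uncertain. Maf, which encodes the other factor of the title, went the other way, at 4.29, 2.94 and 2.63 CPM in bone marrow and 13.9, 12.1 and 14.9 CPM in WT (log2 -2.06, SE 0.2, adjusted p = 1.18e-08, chromosome 8, 115682942 to 115707794, minus strand). The inhibitors Id1 (24.1, 27.8 and 28.4 against 85.6, 91.5 and 83.2 CPM) and Id2 (138, 141 and 136 against 509.9, 469 and 445 CPM) fell 3.24-fold and 3.44-fold, far less than Id3.

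Several single factors of the list are given here. Nr4a1, the orphan nuclear receptor that non-classical monocytes need, was at 79, 89 and 94.3 CPM against 7.92, 8.18 and 10.9 CPM, 9.71-fold higher (log2 3.28, SE 0.119, adjusted p = 6.24e-16). Klf2 and Klf4, Krüppel-like factors of quiescence and monocyte identity, were 5.25-fold and 3.38-fold higher. Irf4, a factor of antigen-presenting cells, was at 18, 13.3 and 14.9 CPM against 1.73, 1.34 and 0.94 CPM, 11.6-fold higher, and Irf8, which directs the monocyte fate, was 1.87-fold higher. Cebpe, a factor of late granulocytes, was 2.59-fold lower. Spi1, which encodes the lineage factor PU.1, was at 149 ± 1.97 CPM in bone marrow and 153 ± 16.9 CPM in WT (adjusted p = 0.641). Cebpb (8.29 and 8.2 CPM, adjusted p = 0.936) and Cebpd (5.82 and 5.83 CPM, adjusted p = 0.994) were not called either, and the libraries of the groups overlapped in all 3.

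**Figure D3:**
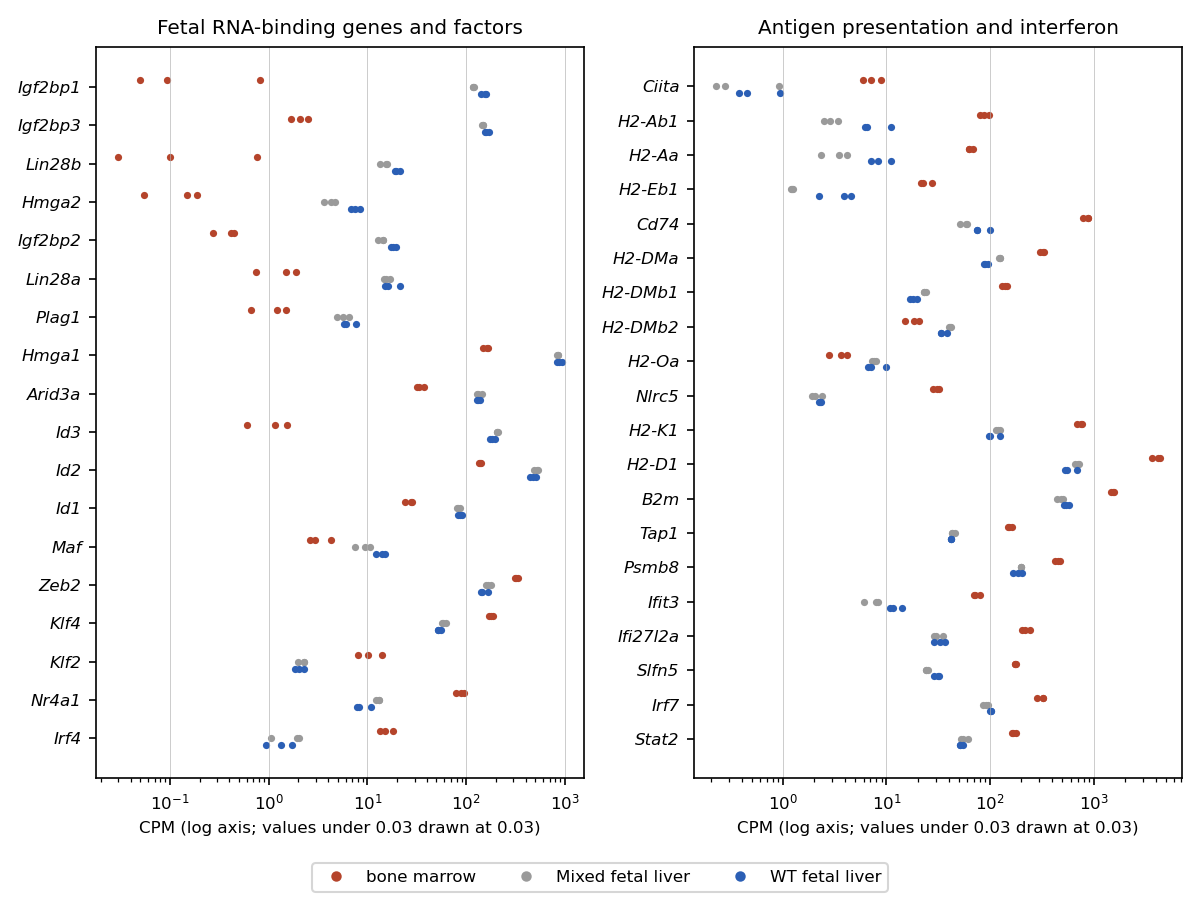
Level in CPM (log axis) in each library of fetal RNA-binding genes and transcription factors (left) and of antigen presentation and interferon genes (right), bone marrow in red, WT fetal liver in blue and Mixed fetal liver in grey, with values under 0.03 drawn at 0.03. In the left panel the fetal genes and Id1 to Id3 and Maf lie lower in bone marrow, while Zeb2, Klf4, Klf2, Nr4a1 and Irf4 lie higher. In the right panel bone marrow lies higher for all genes drawn other than H2-DMb2 and H2-Oa.

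Antigen presentation by MHC class II was far higher in bone marrow, with a pair of members against the trend. Of 13 tested members of the list 9 were higher and 2 lower, and the median log2 fold change was 2.74. Ciita, the coactivator that switches the class II genes on, was at 5.99, 7.04 and 8.83 CPM in bone marrow and at 0.446, 0.938 and 0.376 CPM in WT (12.1-fold, log2 3.59, SE 0.308, adjusted p = 1.81e-08). The chain genes of the surface molecule were higher as well. H2-Ab1 was at 79.6, 97.2 and 87.2 CPM against 6.42, 6.25 and 11.1 CPM (11-fold, adjusted p = 1.3e-08), and H2-Aa was 7.33-fold higher. Cd74, the invariant chain that guards the peptide groove, was at 785, 877 and 881 CPM against 75.1, 75.1 and 99.5 CPM (10.2-fold, adjusted p = 8.63e-13). The 2 lower members belong to the chaperones that edit the bound peptide, H2-Oa (3.53 ± 0.674 against 7.88 ± 1.77 CPM) and H2-DMb2 (18 ± 2.62 against 35.2 ± 2.86 CPM). H2-Ob, the partner chain of H2-Oa, and H2-DMb1, a close copy of H2-DMb2, went the other way. H2-Ob, at 4.23, 3.91 and 2.53 CPM in bone marrow, had 0, 0.134 and 0.094 CPM in WT, and H2-DMb1 was at 139 against 18.1 CPM. Without WT 2 the log2 change of H2-Ob went from 5.36 to 5.97. The division of reads between H2-DMb1 and H2-DMb2 is uncertain. B cells and dendritic cells also express this list, and their markers are given below.

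MHC class I and its peptide supply rose as well. Of 18 members 15 were higher and 2 lower in bone marrow, with a median log2 fold change of 1.94. Nlrc5, the coactivator of class I genes, was at 28.2, 30.5 and 31.8 CPM against 2.34, 2.28 and 2.25 CPM (13.2-fold, log2 3.72, SE 0.197, adjusted p = 8.78e-13). The heavy chain genes H2-D1 (3684, 4355 and 4168 against 548, 523 and 690.1 CPM) and H2-K1 (692, 779 and 761 against 99.5, 98 and 124 CPM) were 6.93-fold and 6.95-fold higher, and their light chain B2m 2.81-fold. The peptide pump gene Tap1 (3.65-fold) and the immunoproteasome gene Psmb8 (log2 1.28) rose with them, as did the non-classical H2-M3 (14.1-fold). The lower members were the chaperone gene Calr (3.01-fold) and Erap1, which encodes a trimming peptidase (log2 -0.52). The H2-Q genes, among them H2-Q7 (11.2-fold higher), have near-identical copies, and mouse strains differ in them, so their single values are uncertain.

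Interferon-induced genes were higher in bone marrow nearly across the list. Of 34 type I interferon induced genes 32 were higher and 1, the kinase gene Eif2ak2, was lower, with a median log2 fold change of 1.40. Ifit3, which encodes an antiviral tetratricopeptide protein, was at 70.7, 79.4 and 70.8 CPM against 10.8, 11.4 and 14 CPM (6.09-fold, log2 2.61, SE 0.112, adjusted p = 9.89e-15). Ifi27l2a was at 216, 205 and 243 CPM against 36.4, 32.9 and 28.5 CPM (6.8-fold), and Slfn5 was 5.75-fold higher. Among the factors that drive the class, Stat2 rose by 3.22-fold and Irf7 by 3.05-fold. In all 34 genes the 3 bone marrow libraries lay apart from the 3 WT libraries (68.2% of all genes did). Bst2, tetherin, was the member not called (adjusted p = 0.0527; called lower in 8 of 14 alternatives, adjusted p from 0.00491 to 0.0491), and Eif2ak2 was not called without BM 1 (log2 -0.33 over all libraries, -0.28 without BM 1, adjusted p = 0.054). Of 14 GTPase genes induced by interferon gamma 10 were higher and 3 lower (median log2 fold change 0.94), from Tgtp2 (49.3, 54.3 and 49.5 against 1.28, 2.59 and 2.63 CPM, 23.1-fold higher) to Gbp8 (0.33, 0.606 and 0.794 against 4.41, 3.93 and 4.6 CPM, 7.33-fold lower). Tgtp, Gbp, Slfn and Ifit genes share sequence with close copies, which makes the value of any single member uncertain.

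The promoters of the class hold the interferon-stimulated response element, ISRE, more often than promoters at large. RefSeq promoters on GRCm38.p6, from 250 bases before to 50 after the gene start, were searched on both strands for GAAA-NN-GAAA, where N is any base. It stood in 15 of 25 promoters of the type I list (60%), in 9 of 9 of the GTPase list (100%) and in 4 of 16 of the class I list (25%), against 382 of 9699 promoters of tested genes (3.94%). Windows of 30 bases are shown 5′ to 3′ on the gene's strand with the match in capitals, for strongly changed members of the 3 lists.
Ifit3, chr19:34583397-34583426, plus strand: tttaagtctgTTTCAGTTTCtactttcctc
Tgtp2, chr11:49064263-49064292, minus strand: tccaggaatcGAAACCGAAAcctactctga
Slfn5, chr11:82951937-82951966, plus strand: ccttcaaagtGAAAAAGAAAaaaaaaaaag
Oas3, chr5:120777715-120777744, minus strand: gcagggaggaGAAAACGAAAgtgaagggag
H2-T22, chr17:36042914-36042943, minus strand: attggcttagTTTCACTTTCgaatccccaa
B2m, chr2:122147538-122147567, plus strand: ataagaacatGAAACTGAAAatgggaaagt
The match in Ifit3 lies 122 bases before the gene start, that in Tgtp2 70 and that in B2m 139. Ifit3 and Ifit3b hold the same 30 letters. Of all 382 genes with the element 49.7% were higher in bone marrow and 28.5% lower, and their median log2 fold change was 0.26. Without the genes of these 3 lists, 46.9% of 354 were higher and 29.9% lower. Of all genes tested, which include genes without a promoter in the search, 32.3% were higher and 31.7% lower. The shares among the 9699 genes with a promoter were not computed, so the genes with the element were not set against a matched set. For class II the letters ATTGG, an inverted CCAAT box, stood in 9 of 9 promoters and in 43.6% of all promoters.

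The classical monocyte genes that define the sorted cells were expressed in both groups and were higher in bone marrow. Of 20 members 17 were higher and 2 lower, with a median log2 fold change of 1.33. Ly6c2, which encodes the marker used for sorting, was at 1907, 1973 and 1993 CPM in bone marrow and at 549, 538 and 490.3 CPM in WT (3.72-fold, log2 1.90, SE 0.0618, adjusted p = 1.05e-16), and Ly6 genes have close copies. Lyz2, the lysozyme gene, was at 21649, 22075 and 21951 CPM against 5715, 5715 and 6845 CPM. By length-corrected level it was the second most abundant gene of bone marrow off X, Y and the mitochondrial genome, after Actb, at 24113 TPM against 6272 TPM in WT, where S100a8 took that place. Ccr2, the receptor for exit from marrow, was 2.67-fold, F13a1, the A chain of factor XIII, 2.85-fold, Ms4a4c 5.39-fold and Csf1r, the receptor of macrophage colony-stimulating factor, 1.43-fold higher. The lower members were Fcgr1, the high-affinity IgG receptor (41.9 ± 4.25 against 136 ± 4.28 CPM, 3.23-fold), and the proteoglycan gene Vcan (22.1 against 32.4 CPM). Vcan was not called when BM 1, BM 2, WT 1 or WT 2 was left out (adjusted p from 0.0681 to 0.0796), and its groups overlapped.

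Non-classical monocyte genes were higher in bone marrow too, although the cells were sorted as Ly6C+. Of 18 members 13 were higher and 4 lower (2 lower without BM 1 or BM 3), with a median log2 fold change of 1.30. Beside Ace and Nr4a1, Cx3cr1, the fractalkine receptor, was at 356, 363 and 364 CPM against 76, 76.1 and 103 CPM (4.24-fold, adjusted p = 8.32e-11). Eno3 was 8.22-fold higher, and Treml4 (34.1 against 14.3 CPM) and Spn, which encodes CD43 (151 against 61.1 CPM), were higher. Bcl2a1a, a survival gene with near-identical copies, was 5.49-fold lower.

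Macrophage genes were mostly lower in bone marrow. Of 21 tested members 13 were lower and 5 higher (3 higher without BM 2, WT 1 or WT 2), with a median log2 fold change of -1.40. C1qb, a chain of the complement starter C1q, was at 2.09, 1.91 and 1.79 CPM in bone marrow and at 26.2, 24.6 and 42.4 CPM in WT (16.1-fold lower, adjusted p = 7.22e-07). Mertk, the receptor for dying cells, was at 0.714, 0.746 and 0.943 CPM against 9.43, 8.18 and 8.03 CPM (10.6-fold lower, adjusted p = 8.27e-12), and Gpnmb was 5.73-fold lower. Marco, a scavenger receptor, had no count in bone marrow and was at 1.73, 1.47 and 3.95 CPM in WT, at least 15.8-fold lower. Higher were Adgre1, which encodes the F4/80 antigen (315 ± 6.45 against 185 ± 18.8 CPM, 1.71-fold), and Cd163, the haemoglobin scavenger receptor, at 4.73, 5.64 and 5.06 CPM with 2 counts in WT, both in WT 2, a ratio of 159 (95% interval 43.7 to 1320.0). All 3 WT values of C1qb lay above bone marrow, the highest in WT 3, the WT library that also held the most globin and hepatocyte RNA.

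**Figure D4:**
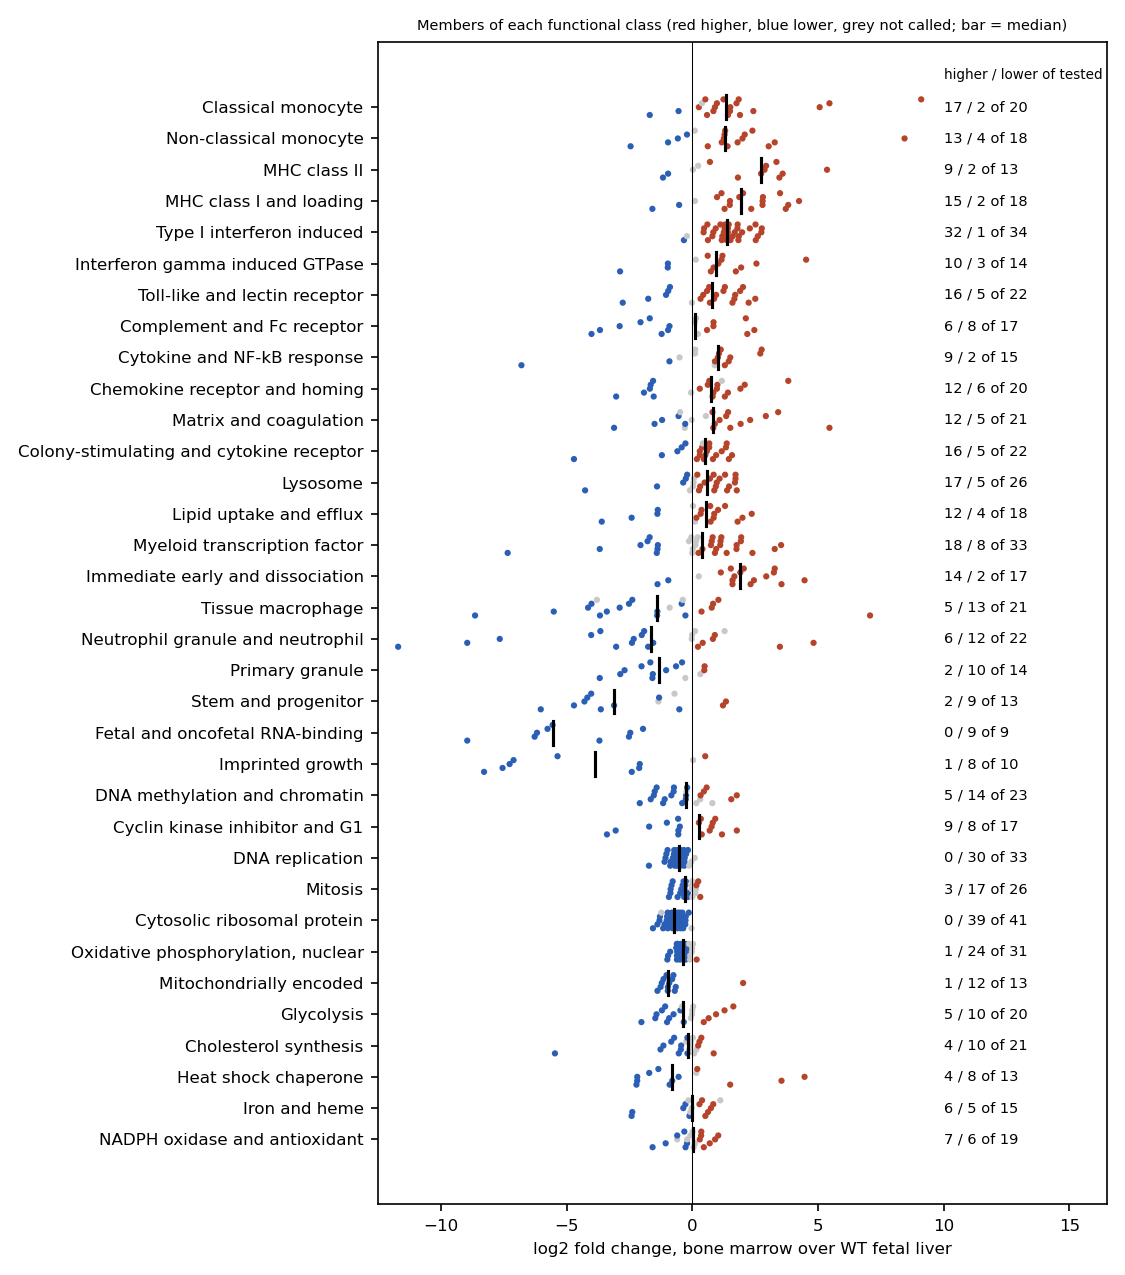
Log2 fold change of bone marrow over WT fetal liver for each tested member of the functional classes named at the left, red for members higher, blue for members lower, grey for members not called, with a black bar at the class median and the counts at the right. Monocyte, MHC and interferon classes lie mostly to the right of 0, the fetal, granule, progenitor and macrophage classes to the left, and replication, ribosomal and respiratory classes form tight groups just left of 0.

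More granule and neutrophil genes were lower in bone marrow than higher. Of 22 members 12 were lower and 6 higher in bone marrow, with a median log2 fold change of -1.66, and Stfa1, Stfa2 and Stfa3 are among the 12. The alarmin genes S100a8 and S100a9 were at 3055, 2739 and 3377 CPM and at 830.1, 796 and 1079.8 CPM in WT, against 175, 180.0 and 208 CPM and 62, 70.7 and 81.4 CPM in bone marrow (16.3-fold and 12.6-fold lower). Cxcr2, the neutrophil chemokine receptor, was 8.17-fold lower. The secondary granule gene Ngp (110.1 ± 39 against 416 ± 252 CPM, adjusted p = 0.031) rested on WT 3, without which it was not called (log2 -1.31, adjusted p = 0.117), and Ltf without WT 3 went from log2 -2.33 to -1.65 (adjusted p = 0.056). Both also lost their calls without BM 1 (adjusted p = 0.0958 and 0.0545), and Ngp without BM 2 (adjusted p = 0.0799). Higher in bone marrow were Cd177, a neutrophil adhesion antigen, at 499, 576 and 566 CPM against 10.6, 13.1 and 33.7 CPM (28.3-fold, adjusted p = 9.18e-05, log2 4.82 and without WT 3 5.51), and Padi4, which encodes the enzyme that citrullinates histones (11.2-fold). Ly6g, which defines neutrophils, was near 0 in both groups, at 0.832 and 0.831 CPM.

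Primary granule genes, a mark of promyelocytes and early monocyte precursors, were lower in bone marrow in 10 of 14 members and higher in 2, with a median log2 fold change of -1.31. Mpo, the myeloperoxidase gene, was at 685, 829 and 743 CPM in bone marrow and 5043, 5502 and 5916 CPM in WT (7.29-fold lower, log2 -2.87, SE 0.0897, adjusted p = 1.27e-12). Ctsc, which activates the granule proteases, was 3.18-fold and Prtn3, the proteinase 3 gene, 2.97-fold lower, while Elane, the elastase gene next to Prtn3 on chromosome 10, was higher in bone marrow (638, 709 and 648 against 469, 482 and 483 CPM, 1.39-fold). Stem and progenitor genes fell likewise, 9 of 13 lower and 2 higher (median log2 fold change -3.11, or -1.35 with the member absent from bone marrow at its bound). In the fit of the 6 libraries alone 7 of 10 were lower and 2 higher, with a median of -2.24. Cd34 was at 27.1, 29 and 25.7 CPM against 524, 519.9 and 560.3 CPM (19.6-fold lower, log2 -4.29, SE 0.0637, adjusted p = 4.83e-22), and Kit, the stem cell factor receptor, was at 1.65, 1.63 and 0.149 CPM against 25.9, 29.6 and 34.1 CPM (26.1-fold lower). Flt3, a receptor of lymphoid and dendritic progenitors, was higher in bone marrow (16.4 ± 1.17 against 6.47 ± 1.01 CPM).

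Genes of DNA replication were lower in bone marrow by small steps in nearly all members. Of 33 members 30 were lower and 0 higher, with a median log2 fold change of -0.54. Orc1, a subunit of the origin recognition complex, changed most (8.61 ± 0.459 against 28.5 ± 2.31 CPM, 3.31-fold lower), followed by Gins1 (2.15-fold) and Rfc4 (2.09-fold). Of 26 mitotic genes 17 were lower and 3 higher (1 higher without BM 2), with a median of -0.29. Aurka, a spindle kinase gene, was 1.91-fold and Ccnb1, cyclin B1, 1.82-fold lower, whereas Mki67, a marker of cycling cells, was at 314, 299.7 and 295 CPM in bone marrow and 314, 316 and 295 CPM in WT (adjusted p = 0.667), with groups that overlapped. The letters TTTCCCGC or TTTGGCGC, which E2F factors bind, stood in 10 of 26 promoters of the replication list (38.5%) and in 0 of 21 of the mitotic list, against 3.42% of all promoters.

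Among the cyclin and G1 genes 9 of 17 were higher in bone marrow and 8 lower. Ccnd2 and Ccnd1, D-type cyclins of entry into the cycle, were at 41.8 ± 2.29 and 13.7 ± 2.45 CPM in WT and at 3.95 ± 0.659 and 1.64 ± 0.281 CPM in bone marrow, 10.5-fold and 8.28-fold lower, and their partner Cdk4 was 2.02-fold lower. Myc was 3.29-fold lower. E2f2 went the other way (204 ± 7.92 against 59.7 ± 2.1 CPM, 3.41-fold higher), as did the inhibitor gene Cdkn2d (1.88-fold). Among regulators of chromatin 14 of 23 were lower and 5 higher, with a median of -0.26. Lower were the remodeler genes Chd7 (4.26-fold) and Hells (2.82-fold) and the de novo methyltransferases Dnmt3a (2.89-fold) and Dnmt3b (2.67-fold), and higher were Ezh1 (2.93-fold) and Cbx7 (3.41-fold), both of Polycomb complexes. Of 14 tested histone genes 7 were lower and 1 higher.

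Ribosome and respiration genes fell as classes, most by less than 2-fold. Of 41 cytosolic ribosomal protein genes 39 were lower in bone marrow and 0 higher, with a median log2 fold change of -0.71, led by Rpl22l1 (51.2 ± 4.46 against 151 ± 15.4 CPM, 2.96-fold), Rpl5 (2.62-fold) and Rps20 (2.47-fold). Of 31 nuclear genes of oxidative phosphorylation 24 were lower and 1 higher (median -0.36), with Ndufa5 1.99-fold lower. The higher member, Uqcrc1 (log2 0.17), was not called without BM 2 (adjusted p = 0.112) or without WT 1 (adjusted p = 0.076). Mitochondrially encoded genes were lower in 12 of 13 members, with a median of -0.97. The exception, mt-Nd3, was 4.06-fold higher, with 31.1, 28 and 29.3 CPM in bone marrow and 7.81, 5.94 and 8.03 CPM in WT, and its neighbour mt-Nd4l was 2.61-fold lower. In glycolysis 10 of 20 members were lower and 5 higher (median -0.37). Ldha, lactate dehydrogenase A, was at 452, 488 and 470.5 CPM against 1885, 1904 and 1948 CPM, 4.07-fold lower, and the glucose transporter gene Slc2a1 2.78-fold lower, while Pfkfb4, a regulator of flux, was 3.1-fold higher.

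Lysosome and lipid handling genes tended to be higher in bone marrow. Of 26 lysosome members 17 were higher and 5 lower, with a median log2 fold change of 0.60. The proteases Ctsh (748, 782 and 754 against 225, 215 and 230.1 CPM, 3.41-fold) and Ctss (3.24-fold) and the membrane protein gene Cd68 (3.29-fold) rose. Cd63, a tetraspanin of lysosomes and primary granules, fell by the most, from 70.1, 65.4 and 92.1 CPM in WT to 3.3, 3.96 and 4.51 CPM in bone marrow (19.2-fold, log2 -4.27, SE 0.146, adjusted p = 1.04e-14). Of 18 lipid genes 12 were higher and 4 lower. Msr1, a scavenger receptor, was 5.15-fold higher, while Pparg, the nuclear receptor of fatty acid storage, was at 3.29 ± 0.377 against 40.2 ± 3.03 CPM (12.1-fold lower) and the cholesterol exporter gene Abca1 5.33-fold lower. Cholesterol synthesis genes were near the genes at large in median (-0.19), with 10 of 21 lower, such as Fdps (2.22-fold), and 4 higher. Iron genes had a median of -0.03, with 6 of 15 higher and 5 lower (3 lower without BM 1), and the transferrin receptor gene Tfrc was 5.34-fold lower in bone marrow. For the NADPH oxidase and antioxidant list 7 of 19 were higher and 6 lower (median 0.01).

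Sensing and migration genes leaned to bone marrow. Of 22 Toll-like and lectin receptor genes 16 were higher and 5 lower (median 0.78). Clec4a3, an inhibitory lectin, was 5.68-fold, the flagellin receptor gene Tlr5 4.73-fold and Nod2, a sensor of bacterial wall fragments, 4.05-fold higher, while Clec4n, which encodes Dectin-2, was 6.81-fold and the endotoxin receptor gene Tlr4 2.06-fold lower, and Tlr2 was not called (72.5 and 73.2 CPM, adjusted p = 0.875). Among chemokine receptors and homing molecules 12 of 20 were higher and 6 lower (median 0.74). Itgb7, an integrin chain for homing to the gut, was at 626, 601 and 650.4 CPM against 47.6, 43.5 and 42.2 CPM (14.1-fold, log2 3.82, SE 0.0693, adjusted p = 1.08e-20), and Ccr1 (2.9-fold) was lower. Cytokine genes had 9 of 15 members higher, led by the chemokine genes Ccl9 (294, 292 and 299 against 45.1, 44.1 and 41.6 CPM, 6.77-fold) and Ccl6 (6.52-fold), and 2 lower.

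Receptors for growth factors and antibodies varied by member. Of 22 cytokine receptor genes 16 were higher and 5 lower (median 0.49), with Csf2ra, a chain of the GM-CSF receptor, 2.99-fold and Il10ra 2.74-fold higher. Of 17 complement and Fc receptor genes 6 were higher and 8 lower (median 0.10). The inhibitory receptor gene Fcgr2b (142, 146 and 146 against 29.1, 32.5 and 33.5 CPM, 4.56-fold) and the complement gene C3 (4.37-fold) rose, and the activating Fcgr1 and Fcgr4 (1.95-fold) fell with the C1q chains. Matrix and coagulation genes had 12 of 21 higher and 5 lower (median 0.83). Beside Fn1 and F13a1, Tgfbi, a matrix protein gene, was at 1163, 1242 and 1222 CPM against 254, 251 and 231 CPM (4.93-fold) and the metalloprotease gene Adam19 10.7-fold higher, whereas Thbs1, thrombospondin, was 8.66-fold lower.

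Immediate early genes, which dissociation of tissue can also induce, were higher in bone marrow in 14 of 17 members and lower in 2, with a median log2 fold change of 1.91. Fos was at 215, 305 and 371 CPM against 42, 45.9 and 74.6 CPM (5.47-fold, adjusted p = 0.0005), Jun 7.69-fold and Dusp1, a phosphatase gene, 9.48-fold higher. Values spread within groups, and BM 1 was the lowest bone marrow library in all 3. Egr1 was lower in bone marrow (1.45 against 3.82 CPM). The inducible heat shock genes Hspa1a (186, 230.3 and 262 against 3.01, 4.56 and 22.6 CPM, 22.1-fold higher) and Hspa1b, close copies of each other and members of both lists, rose, and without WT 3 their log2 changes went from 4.47 to 5.87 and from 3.55 to 5.71. In the heat shock list as a whole 8 of 13 were lower and 4 higher (median -0.80), with the mitochondrial chaperones Hspd1 (4.67-fold) and Hspe1 (4.57-fold) and the cytosolic Hsp90aa1 (4.56-fold) lower. Nr4a1 and Klf2, named above, also belong to genes that handling of cells induces. The part of handling in these results was not tested.

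Markers of other cells moved with the tissue and stand beside the results above. The summed level of 9 monocyte markers was 34650 to 35350 CPM in bone marrow and 10660 to 12160 CPM in WT, with 9 of 9 higher in bone marrow. Most of that sum was Lyz2, at 21650 to 22070 CPM in bone marrow and 5715 to 6845 CPM in WT. The sum of 11 neutrophil markers was 985 to 1174 CPM in bone marrow and 4497 to 6348 CPM in WT. Of these markers 6 were lower and 2 higher in bone marrow, and Ly6g was under 1.5 CPM in each library. Most of the WT sum came from S100a8 (3055, 2739 and 3377 CPM) and S100a9 (830.1, 796.4 and 1080 CPM). Stem and progenitor markers summed to 2117 to 2332 CPM in bone marrow and 7131 to 8039 CPM in WT, with 5 of 8 lower and 3 higher. Most of that WT sum was the primary granule gene Mpo, at 5043 to 5916 CPM. Erythroid markers summed to 5.44 to 21 CPM against 971 to 1841 CPM, with all 7 tested markers lower in bone marrow, and all 17 tested erythroid list genes were lower. Hbb-bs was at 1.87, 2.28 and 5.11 CPM against 281, 307 and 500.4 CPM (117-fold lower), Hbb-bt 165-fold lower, and Slc4a1, the red cell anion exchanger gene, at 0.055, 0 and 0.198 CPM against 10.9, 12.1 and 26.7 CPM. Without BM 3, which held the most erythroid RNA of the bone marrow libraries, the log2 change went from -7.37 to -8.39 for Hbb-bt and from -7.53 to -9.06 for Slc4a1. The embryonic globins were at 0 in all bone marrow libraries and summed to 11.3, 1.43 and 51.6 CPM in WT 1, WT 2 and WT 3. Hbb-y was at least 105-fold lower in bone marrow (adjusted p = 0.0425), a call lost in 5 of 6 fits that left out a library, with adjusted p = 0.107 without WT 3. It was at 9.21, 0.268 and 38.1 CPM in WT, and without WT 3 the bound was 31.3-fold.

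Hepatocyte markers were a trace in WT and nearly absent from bone marrow, at 12, 8.8 and 66.6 CPM in WT 1, WT 2 and WT 3 and 0.495, 0.14 and 0.0496 CPM in bone marrow. Of 11 hepatocyte list genes 10 were lower (6 without BM 2, 7 without BM 1 or BM 3, and 2 of 6 tested in the fit of the 6 libraries alone), and Trf, the transferrin gene, was higher in bone marrow (537 ± 23.2 against 223 ± 72.4 CPM). Of 10 tested B cell list genes 7 were higher in bone marrow and 2 lower (median log2 fold change 2.70, or 2.65 with the gene absent from WT at its bound). Ebf1 and Pax5 had no count in WT, and in bone marrow Ebf1 was at 1.26, 1.17 and 0.843 CPM. Pax5 was near 0 in bone marrow as well, at 0, 0.0466 and 0.198 CPM, and was below the count filter. Cd79b was 2.2-fold lower in bone marrow and made up most of the sum of the 8 markers in both groups. That sum was lower in bone marrow, at 41.8 to 46.5 CPM against 79.8 to 87.5 CPM. Ighm, the IgM heavy chain gene, was at 910.5, 1046 and 953 CPM against 56.2, 66.2 and 75.5 CPM (14.7-fold higher). Dendritic cell markers summed to 81.9 to 92 CPM in bone marrow and 17 to 20.5 CPM in WT. Most of both sums came from Cd209a (61.4 to 72.7 against 6.925 to 11.6 CPM) and Flt3 (15.4 to 17.7 against 5.5 to 7.51 CPM). Of 6 tested dendritic cell markers 3 were higher and 1 lower in bone marrow. Clec10a (17.6-fold), Dpp4 (12.5-fold) and Cd209a (7.68-fold), all of which monocytes of a dendritic bias also express, were higher, while Zbtb46, which defines conventional dendritic cells, was under 2 CPM in each library and lower in bone marrow. Eosinophil markers summed to 0.447 to 1.04 CPM against 9.76 to 29.1 CPM, and mast cell and basophil markers to 4.12 to 33.2 CPM against 2.06 to 3.31 CPM. Most of that bone marrow sum was Prss34, which spread widely, at 10.8, 29.1 and 2.73 CPM. Of 4 tested mast cell and basophil markers 2 were higher and 1 lower. Gata2 was at 0.165, 0 and 0.0496 CPM in bone marrow and 1.17, 1.52 and 1.27 CPM in WT. Cd3e and Trac, which define T cells, were at 0 in WT and at 0.14 to 0.595 CPM in bone marrow. Cd3d, another T cell marker, overlapped between the groups, at 0.275, 0.28 and 0.347 CPM in bone marrow and 0.112, 0.0447 and 0.517 CPM in WT. Of 8 T and NK cell markers 2 were tested, 1 of them higher in bone marrow and 0 lower. The part of these cells in the results above was not tested.

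**Figure D5:**
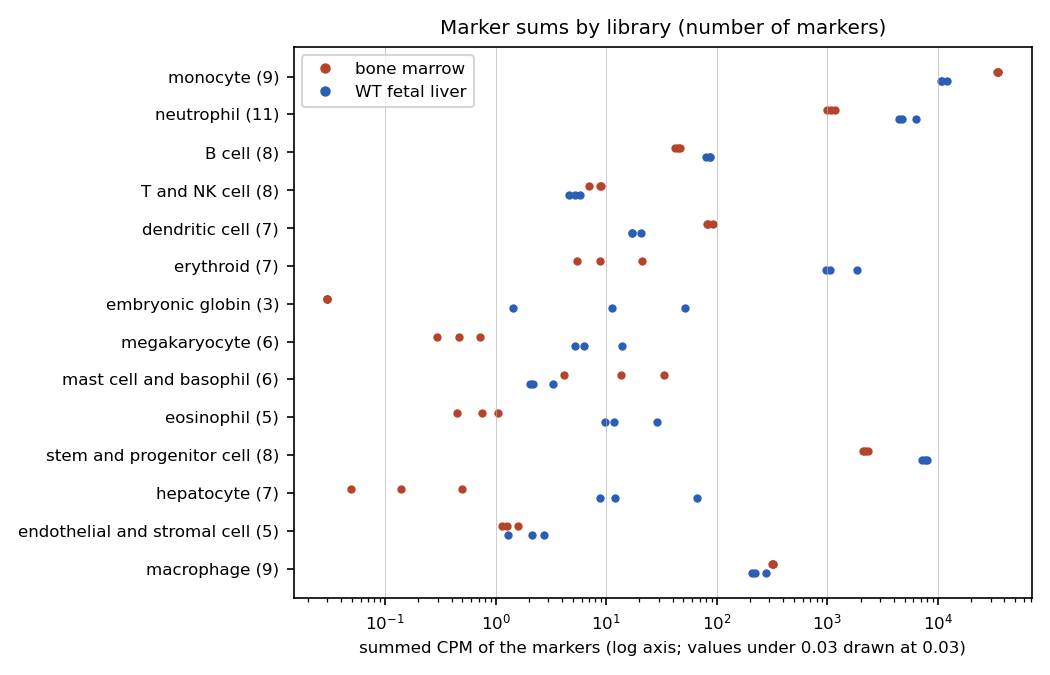
Summed level in CPM (log axis) of the markers of 14 cell types in each bone marrow (red) and WT fetal liver (blue) library, with the number of markers in brackets and values under 0.03 drawn at 0.03. The monocyte sum is the highest of all in both groups. Most of it is Lyz2, and in WT its rank rests on that gene. The neutrophil, progenitor, erythroid and hepatocyte sums are higher in WT fetal liver and the dendritic cell sum is higher in bone marrow. In WT most of the neutrophil sum is S100a8 and S100a9, and most of the progenitor sum is Mpo. Most of the dendritic cell sum is Cd209a and Flt3 in both groups.

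The WT libraries come from different days, with WT 1 alone at E13.5, so age within the fetal liver cannot be told apart from differences between single libraries. Among 1507 genes called at 2-fold or more and averaging 3 log2 CPM or more, WT 1 lay farthest from the bone marrow mean in 590 (39.2%), WT 2 in 504 (33.4%) and WT 3 in 413 (27.4%). The median distance was 1.43, 1.43 and 1.38 on the log2 scale for WT 1, WT 2 and WT 3. By this median the 3 WT libraries lay about equally far from bone marrow. By count of genes they did not, since WT 3 was the nearest of them in 788 of the 1507, WT 1 in 394 and WT 2 in 325.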

How the data were processed

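Bulk RNA-seq libraries were made from RNA of sorted Ly6C+ monocytes and sequenced on a NovaSeq X Plus, per the labels' protocols, which name the SMARTer Ultra Low kit. That kit does not mark strand. The authors deposited estimated counts per gene (28.5% of values above 0 are not whole numbers), not normalized, and TPM values per gene. Per the submitters' processing notes the build was mm10 and DRAGEN, STAR, Subread, featureCounts and Salmon were named; no source used here gives their roles or order. The first entry of each of 287 repeated gene entries was kept, which left 55487 genes, and 0 sample columns were unmapped.

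Estimated counts were rounded to whole numbers, filtered (edgeR 4.0.16 filterByExpr, minimum count 10, minimum total 15, in R 4.3.3), scaled by TMM and fitted over all 12 libraries with edgeR's robust quasi-likelihood model. The contrast of bone marrow with WT was tested 2-sided, with Benjamini-Hochberg adjustment over all 14618 genes tested and a call at adjusted p under 0.05. TPM served only for the order of levels between genes. On simulated counts for 14262 genes the same code recovered 79.1% of 1.5-fold, 79.1% of 2-fold and 98.5% of 4-fold changes, with 4.5% false calls. Only 67, 67 and 66 genes were changed by these folds, all drawn from genes above a count threshold. In the data 64% of genes were called, so these shares do not give the error of the calls here. The common biological coefficient of variation was 0.0917. Bounds use a floor of 3 counts per library, and intervals and bounds cover counting error only.

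Zeb2 and Maf were named, with the 12 largest and 12 smallest log2 fold changes among called genes of 3 log2 CPM or more on average over the 12 libraries whose groups did not overlap, predicted genes left out. For each list up to 4 called members of largest change averaging at least 1 log2 CPM were named as well. Other genes were chosen after their values were seen. The members and lists were chosen with earlier results of these data known. Alternatives were other scalings, DESeq2 1.42.0, no filter, fewer libraries, a test against 1.5-fold and the replicate number as a block. Some members of the lists are not reported here by name.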

Additional observations from a re-analysis of the deposited data

How the results depend on the processing

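The count of genes higher in bone marrow ran from 4318 to 4542 and that of lower genes from 4393 to 4759 under 6 alternatives, which were the fit of the 6 libraries alone, DESeq2 size factors, upper quartile scaling, the DESeq2 test, no count filter and removal of X and Y genes before the fit. Leaving out 1 library at a time gave 4137 to 4423 higher and 4274 to 4362 lower. The test against a 1.5-fold change, stricter by construction, called 2069 higher and 2042 lower. None of these fits called a gene in the direction opposite to its call here. The median log2 fold change of all genes lay between -0.03 and 0.066. With the replicate number as a replicate block 4519 genes were higher and 4452 lower. Same-numbered libraries did not deviate together from their group means (r of 0.008, -0.038 and 0.018). These values show no pairing by number, but with 3 libraries per group they cannot exclude it. Among 300 genes followed singly under 14 alternatives, 4113 of 4198 values kept direction and side of the threshold, 77 lost the call, 8 (all Bst2) gained it and 0 reversed. With 3 libraries per group, genes at a few counts in 1 group have folds set by those counts, and sex, age and tissue cannot be separated.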
